A study of Mus musculus with 16 samples.

Results

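*C1ql1*, *C1ql2*, *C1ql3*, *C1ql4*, *Cbln1*, *Cbln2* and *Cbln4*, the 4 C1q-like genes and 3 of the cerebellins, were followed through single sensory neurons of the mouse dorsal root ganglion. These 7 genes were taken by name, from 49671 Ensembl genes in the count tables. Their levels were read in 799 wells of 1536 that held at least 10000 unique molecular identifiers (UMIs) and at least 100 CPM (a gene's UMIs scaled to 1000000 in the well, or in the sum of wells) of *Avil* plus *Isl1*, genes of postmitotic sensory neurons. Of these wells, 754 had a UMI of at least 3 of the proprioceptor genes *Pvalb*, *Runx3*, *Etv1* and *Ntrk3* and are called proprioceptor wells below. *Cbln3*, the remaining cerebellin, is given beside the 7.

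Both families are small secreted proteins that end in a globular C1q domain and assemble into oligomers. They sit in the synaptic cleft and hold the 2 sides of a synapse together. C1q-like proteins bind *Adgrb3*, an adhesion receptor of the BAI family, and *C1ql2* and *C1ql3* also act with kainate receptors at hippocampal mossy fibre synapses. Cerebellins bind neurexins on the axon side and delta glutamate receptors such as *Grid1* across the cleft. *Cbln1* does so between parallel fibres and Purkinje cells, and *Cbln4* also binds *Dcc* and *Neo1*. Proprioceptors, which carry signals of muscle stretch and force, synapse on motor neurons and interneurons of the spinal cord, and *Pvalb* is one of their usual markers.

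The libraries fall into 2 ages. The e15.5 set has 10 libraries of 96 wells from PvtdTom embryos, a transgenic line in which the parvalbumin promoter of a bacterial artificial chromosome drives the red fluorescent protein tdTomato. The p1 set has 6 libraries of 96 wells from Trpv1Cre; PvFlp; Ai65 pups, in which a Cre and a Flp recombinase together turn on tdTomato, and from PvCre; Ai14 pups, in which Cre alone does. All cells were therefore picked for tdTomato, from thoracic and lumbar ganglia, and unlabelled cells were not analysed here. The paper used 2 Trpv1Cre lines, and each of these and PvCre; Ai14 gave 96 thoracic and 96 lumbar wells. It reports that the Trpv1Cre; PvFlp; Ai65 cross marks only a subset of proprioceptors, those of back muscles. Most p1 wells thus came from a preselected subset, unlike the e15.5 wells. The labels give neither the line nor the segmental level of a library and name fluorescence sorting for both ages, while the methods describe picking by hand at p1. Age, mouse line and the way cells were isolated cannot be told apart in any comparison of the ages. The labels do not say that libraries came from separate animals, so each p-value measures the spread between libraries.

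A library held 3701900 to 9299431 UMIs at e15.5 and 386517 to 8814472 at p1. At e15.5, 871 of 960 wells reached 10000 UMIs. They divided into 390 proprioceptor wells, 44 other sensory neuron wells with at most 2 of the 4 markers, and 437 remaining wells with *Avil* plus *Isl1* under 100 CPM. At p1, 369 of 576 wells reached it, of which 364 were proprioceptor wells. The median proprioceptor well held 110235 UMIs at e15.5 and 55518.5 at p1, against 28402.5 in the other sensory and 26755 in the remaining e15.5 wells. The 4 proprioceptor markers, which set the classes and so are no check of them, stood together at 3939 CPM at e15.5 and 3818 at p1 in proprioceptor wells and at 130 in the other sensory wells. The other sensory wells were a mixture, with 1280 CPM of 6 nociceptor genes, 8313 of 4 connective tissue genes and 7541 of 4 globin genes. Of the 44, 24 held at least 1000 CPM of the connective tissue genes. Glial genes reached 200 CPM in 79 and 88 of the proprioceptor wells at the 2 ages. *Xist* and Y-linked genes were both at 5 UMIs or more, a sign of 2 cells in a well, in 9 of 390 and 0 of 364 proprioceptor wells, and *C1ql2* was found in none of the 9. No pair of wells had identical counts, and the same 96 well numbers recur in each library.

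The last 60 coding bases before the stop codon, which encode the end of the C1q domain, are shown because they let the 2 families be told apart by eye. They were read 5′ to 3′ on the coding strand from the GRCm38 transcripts, and capitals mark the 20 positions at which all 6 genes printed here have the same base.
C1ql1: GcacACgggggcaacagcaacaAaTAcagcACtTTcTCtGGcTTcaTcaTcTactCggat
C1ql2: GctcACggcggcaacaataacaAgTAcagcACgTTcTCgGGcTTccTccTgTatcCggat
C1ql3: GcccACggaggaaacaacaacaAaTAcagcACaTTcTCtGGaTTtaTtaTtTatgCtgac
C1ql4: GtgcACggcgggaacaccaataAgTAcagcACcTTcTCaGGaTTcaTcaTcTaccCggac
Cbln1: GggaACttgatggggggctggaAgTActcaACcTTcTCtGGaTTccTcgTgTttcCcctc
Cbln4: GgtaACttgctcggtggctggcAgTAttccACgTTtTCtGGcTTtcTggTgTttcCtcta
In this window *C1ql2* has the same base as *C1ql1* at 48 positions, as *C1ql4* at 46, as *C1ql3* at 44, and as *Cbln1* and *Cbln4* at 30 each. Over the aligned coding sequence *C1ql2* was 76.7% identical to *C1ql1*, 76.5% to *C1ql3* and 74.6% to *C1ql4*, and 67.6%, 66.6% and 65.0% identical to *Cbln1*, *Cbln2* and *Cbln4*. The highest identity of any pair of the 7 was 77.0%, between *C1ql1* and *C1ql4*.

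The genes lie apart in the genome. In GRCm38 with GENCODE M21, *C1ql2* is on the plus strand at chr1:120340582-120343174, *C1ql1* on the minus strand at chr11:102939264-102946688, *C1ql3* on the minus strand at chr2:13003457-13011806 and *C1ql4* on the minus strand at chr15:99084086-99087817. *Cbln1* is on the minus strand at chr8:87468405-87472609, *Cbln4* on the minus strand at chr2:172036233-172043466 and *Cbln2* on the plus strand of chromosome 18. Each C1q-like gene has 2 exons. *C1ql1*, *C1ql3* and *Cbln1* overlap noncoding transcripts on the opposite strand, and no source used here gives the strand setting of the counting, so a share of their UMIs could belong to those transcripts.

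One gene carried nearly all of the family in proprioceptors. Of the 8843 UMIs of the 7 genes in e15.5 proprioceptor wells, *Cbln2* held 95.9%, and at p1 it held 97.8% of 9696. *C1ql2* held 2.57% and 1.28%, and 97 of its 124 UMIs at p1 came from library 1. CEL-Seq2 counts 1 tag at the 3′ end of a transcript, so CPM was compared between genes without dividing by length. In the other sensory wells *Cbln2* made up 74.6% of the family's UMIs and in the remaining wells 48.1%.

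*Cbln2* was detected in 353 of 390 proprioceptor wells at e15.5 (90.5%, exact 95% interval 87.2 to 93.2, counting error only) and in 334 of 364 at p1 (91.8%). Its summed level was 193 CPM at e15.5. By library, in the order 1 to 10, it stood at 157, 93.5, 123, 142, 163, 293, 243, 261, 210 and 206 CPM. Libraries 1 to 5 were all below libraries 6 to 10. At p1 the summed level was 341 CPM, and libraries 1 to 6 held 263, 553, 277, 210, 361 and 233 CPM. The ages overlapped, with 2 of 6 p1 libraries above every e15.5 library and 6 of 10 e15.5 libraries below every p1 library.

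*C1ql2*, the C1q-like gene that the study used with *Tox* and *Gabrg1* as a marker of proprioceptor subtypes, was at 5.17 CPM in e15.5 proprioceptor wells, second of the 7 after *Cbln2*, and at 4.46 CPM at p1. It was found in 66 of 390 wells (16.9%, exact 95% interval 13.3 to 21.0) and in 45 of 364 (12.4%, 9.16 to 16.2). Across the e15.5 libraries it stood at 12.7, 17.1, 0.366, 5.86, 8.16, 1.28, 5.23, 1.40, 2.19 and 2.71 CPM, with every library above 0. Across the p1 libraries it stood at 11.1, 2.84, 0, 0.634, 0.940 and 0.229 CPM. Without library 1 the p1 level was 1.42 CPM, below the 2.05 CPM of *C1ql3* in the same libraries, and *C1ql3* was above *C1ql2* in 4 of 6 p1 libraries. The medians over p1 libraries were 0.787 CPM for *C1ql2*, 2.15 for *C1ql3* and 0.904 for *Cbln1*. Library 3, with 12 wells, held none, which allows up to 12.6 CPM there (3 UMIs of its total), so its place among the libraries cannot be given. In the remaining e15.5 wells, which lack the sensory genes, 9 of 437 wells (2.06%) had a *C1ql2* UMI at a median depth of 26755 UMIs against 110235 in the proprioceptor wells. Of those 9 wells 7 were in library 2, and without it the share was 0.539% (2 of 371) and the level 0.193 CPM. With every well thinned to 10000 UMIs, the shares were 4.36% in e15.5 proprioceptor wells, 3.02% at p1 and 0.458% in the remaining wells.

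The other C1q-like genes were scarce in proprioceptors. *C1ql3* was found in 8 of 390 wells at e15.5 (0.205 CPM) and in 31 of 364 at p1 (1.80 CPM). Its e15.5 libraries ran from 0 to 1.60 CPM with 5 of 10 at 0, while all 6 p1 libraries lay between 0.951 and 4.19. *C1ql1*, which climbing fibres use in the cerebellum, was found in 3 and 2 wells, at 0.0911 and 0.0719 CPM. *C1ql4* was in 0 of 390 wells at e15.5, which allows a share of wells with a UMI of up to 0.769% (3 of 390), and in 2 of 364 at p1.

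Of the remaining cerebellins, *Cbln1* stood at 2.16 CPM in 62 of 390 proprioceptor wells at e15.5 (15.9%) and at 1.01 CPM in 17 of 364 at p1 (4.67%). Its 10 e15.5 libraries all had UMIs and ran from 1.07 to 4.48 CPM, and its 6 p1 libraries ran from 0 to 1.60, so that 7 of 10 e15.5 libraries were above every p1 library. Thinned to 10000 UMIs, its share was 2.31% in e15.5 proprioceptor wells and 1.83% in the remaining wells, so at equal depth the 2 shares lay close together and no expression above background is read from the share of *Cbln1*. *Cbln4* stood at 0.661 CPM (13 wells) and 0.144 CPM (4 wells), and *Cbln3* at 0.273 (11 wells) and 1.08 CPM (28 wells).

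**Figure D1:**
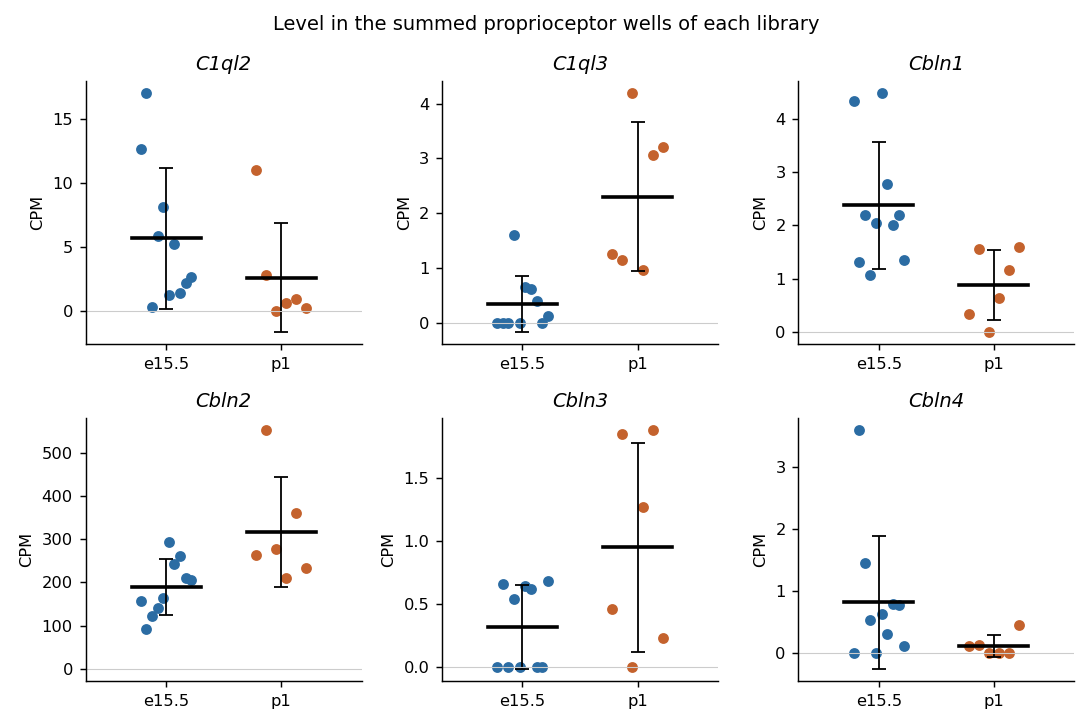
Level of *C1ql2*, *C1ql3*, *Cbln1*, *Cbln2*, *Cbln3* and *Cbln4* in every library, each on its own scale, in CPM, in the summed proprioceptor wells at e15.5 (10 libraries) and p1 (6 libraries). Points are libraries, the thick line is their mean and the bars are 1 SD. *Cbln2* stands far above the rest of the family in proprioceptor wells, at 193 and 341 CPM summed over libraries, and *C1ql2* is spread from 0.366 to 17.1 CPM among the e15.5 libraries.

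**Figure D2:**
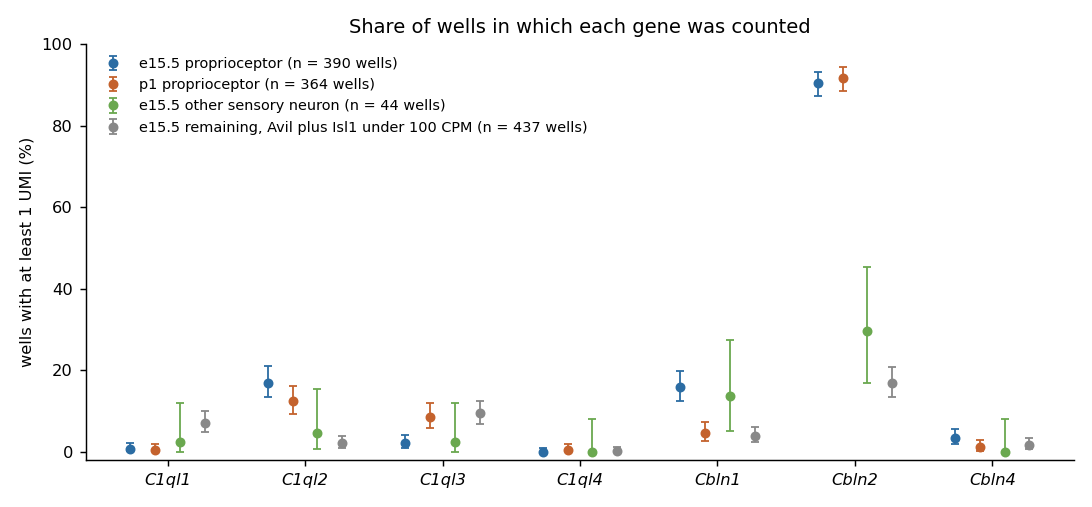
Share of wells (percent) with at least 1 UMI of each gene, with exact 95% binomial intervals, for the classes of wells at the 2 ages. *Cbln2* was found in 90.5% and 91.8% of proprioceptor wells, *C1ql2* in 16.9% and 12.4%, and *C1ql1* and *C1ql3* in larger shares of the remaining wells than of the e15.5 proprioceptor wells.

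The comparison of the ages asked which members differed in proprioceptor wells between e15.5 and p1. Counts were summed over the wells of a library and tested with edgeR across 21129 genes. Here and below, a fitted difference compares library sums after scaling, with libraries as replicates. A summed CPM level pools all wells of a group without that scaling, so the 2 can differ in size. Of the 5 members with enough UMIs to test, 2 were higher at p1 (*Cbln2* and *C1ql3*) and 0 were lower. Across all tested genes 49.2% were called, 26.6% higher at p1 and 22.6% lower, so this count is not a result about the family. *Cbln2* rose by 1.00 on the log2 scale (SE 0.23, adjusted p = 0.0012) and *C1ql3* by 3.16 (SE 0.72, adjusted p = 0.0013). *Cbln3* rose by 2.12 (SE 0.75, adjusted p = 0.024), a call that was lost without p1 library 2 or 5. *Cbln1* differed by -0.92 (SE 0.42, adjusted p = 0.077), *Cbln4* by -2.03 (SE 0.97, adjusted p = 0.091) and *C1ql2* by -0.59 (SE 0.72, adjusted p = 0.53), and none of these passed. At an unadjusted p below 0.05, 1 member (*Cbln1*) was lower. Without p1 library 1 the *C1ql2* difference was -1.93 (adjusted p = 0.0504), and *Cbln4* passed only without e15.5 library 5 (-2.22, adjusted p = 0.049). *C1ql1* and *C1ql4* had too few UMIs to test.

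Depth and other cell types moved with age. The median well was deeper at e15.5 (110235 against 55518.5 UMIs), the 4 connective tissue genes summed to 454 CPM at e15.5 (34.9 to 1908 by library) and 183 at p1 (85.2 to 305), and the 6 glial genes to 380 and 251. Without the wells that held glial transcripts the *Cbln2* difference was 0.89 (adjusted p = 0.0045) and the *C1ql3* difference 3.14 (adjusted p = 0.0032). With every well thinned to 10000 UMIs, *Cbln2* rose by 0.74 (adjusted p = 0.0057) and *C1ql3* had too few UMIs left to test.

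Among 10 partners of the 2 families, 6 were higher at p1 and 1 was lower, where 26.6% of all tested genes were higher and 22.6% lower. Their median difference was 0.71, against 0.056 over all tested genes. The neurexins *Nrxn2* and *Nrxn3*, axonal partners of the cerebellins, rose. *Nrxn2* went from 398 to 827 CPM (log2 1.28, SE 0.13, adjusted p = 1.9e-07), with 324 to 459 CPM in the 10 e15.5 libraries and 419 to 1035 in the 6 p1 libraries. *Nrxn3* went from 60.4 to 223 CPM (2.31, SE 0.22, adjusted p = 6.7e-08), and its e15.5 libraries (30.4 to 87.8) did not overlap with its p1 libraries (154 to 308). The kainate receptor subunit *Grik2* rose from 4.26 to 13.4 CPM (2.02, SE 0.24, adjusted p = 1.5e-06), whereas *Grik4*, another kainate subunit, did not pass (13.1 and 9.23 CPM, adjusted p = 0.996).

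Of the adhesion receptors of the BAI family, *Adgrb3*, the receptor of C1q-like proteins, was at 50.4 CPM at e15.5 (41.0 to 62.7 by library) and 58.0 at p1 (49.6 to 101). Its fitted difference was 0.55 (SE 0.13, adjusted p = 0.0024), more than the pooled CPM show. *Adgrb2* differed by 0.87 (SE 0.21, adjusted p = 0.0018), and *Adgrb1* by 0.19 (adjusted p = 0.48), which did not pass. The delta receptor *Grid1* differed by 0.09 (adjusted p = 0.74). The netrin receptor *Dcc* rose by 1.30 (SE 0.23, adjusted p = 9.3e-05) and its relative *Neo1* fell by 0.89 (SE 0.15, adjusted p = 5.0e-05). Across 29 other settings 5 to 6 of these partners were higher and 1 was lower.

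Among 29 other synaptic organizers, 8 were higher at p1, 5 were lower and 16 did not pass, with a median of 0.16. These counts are near the shares of all tested genes (26.6% higher and 22.6% lower) and are not a result about the list. The largest rises were those of *Lrrtm3* (2.77), *Slitrk4* (2.03) and the neuroligin *Nlgn1* (1.78, adjusted p = 8.3e-06), and the largest falls those of *Flrt1* (-1.78), *Flrt2* (-1.38) and *Lrrc4b* (-1.12). The complement chains *C1qa*, *C1qb* and *C1qc*, which share the C1q domain and mark macrophages, gave 0 calls of 3 by edgeR, with an unadjusted p below 0.05 for 2 of 3, and the macrophage list summed to 6.26 CPM at e15.5 and 1.01 at p1.

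**Figure D3:**
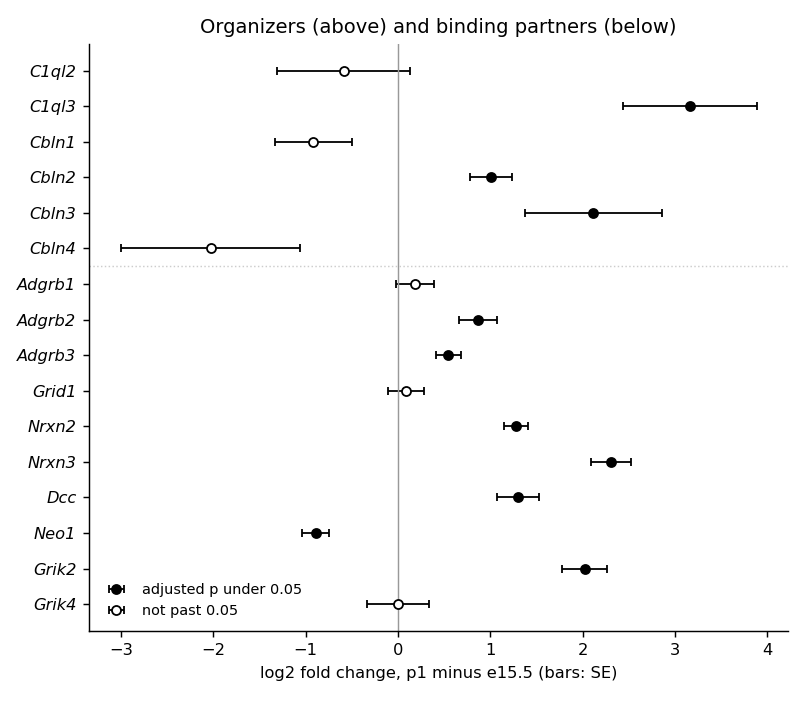
Difference between p1 and e15.5 proprioceptor wells on the log2 scale for the tested members and *Cbln3* (above the dotted line) and 10 partners (below it). Bars are standard errors from the edgeR fit, and filled points passed an adjusted p of 0.05. *Nrxn2*, *Nrxn3*, *Grik2* and *C1ql3* lie to the right, *Neo1* to the left, and the bar of *C1ql2* spans 0.

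Proprioceptor wells were next set against the 44 other sensory neuron wells at e15.5, over sums of at least 3 wells in 10 and 8 libraries. Of the 4 members tested, *Cbln2* was higher in proprioceptors and 0 were lower by edgeR (1, *Cbln1*, at an unadjusted p below 0.05 and by DESeq2), where 22.3% of 19261 genes were called, 7.93% higher and 14.4% lower. With the library as a block, 2523 genes were called in place of 4295. *Cbln2* was found in 13 of 44 other sensory wells (29.5%), and the libraries with such sums stood at 7.21, 28.4, 0, 0, 19.2, 113, 21.4 and 35.6 CPM. Only the library at 113 (library 7) reached the range of the proprioceptor sums. The difference was 2.75 (SE 0.41, adjusted p = 6.2e-05). It stayed called in 23 of 23 other settings, including without the wells that held connective tissue transcripts (2.81, adjusted p = 0.0014).

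*C1ql2* was found in 2 of 44 other sensory wells and was at 1.13 CPM there. Of the 8 summed libraries only library 4 had a UMI. The fitted difference was 3.03 (SE 1.41, adjusted p = 0.13), did not pass, and ran to 6.95 without library 4 (adjusted p = 0.18), so it rests on that library. The depth of these wells, a median of 28402.5 UMIs, limits what the comparison could show. *Cbln1* was at 6.21 CPM in the other sensory wells (6 wells) and at 2.16 in proprioceptors, a difference of -1.42 (SE 0.54, adjusted p = 0.063). It passed in 5 of 21 other settings, with adjusted p from 0.042 to 0.049 there, among them the fits without e15.5 library 6 (-1.59) or 10 (-1.51). *Cbln4* was at 0 in every library of the other sensory wells, so no fold is given. A count of 0 allows 5.32 to 28.8 CPM in these libraries, above the 0.661 CPM of proprioceptors, and a difference was not detectable at this depth. *C1ql1* and *C1ql3* were at 0.564 CPM each in the other sensory wells and *C1ql4* at 0, and these 3 had too few UMIs to test. Of the partners, 4 were higher in proprioceptors (*Adgrb1* 2.54, *Grid1* 2.61, *Adgrb2* 1.83 and *Nrxn2* 1.31), 1 was lower (*Grik4*, -1.40) and 5 did not pass. Of all tested genes 7.93% were higher and 14.4% lower.

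Among the 29 other organizers, 5 were higher in proprioceptors and 6 lower in this comparison, where 7.93% of all tested genes were higher and 14.4% lower. With TMM factors from all tested genes these counts were 11 and 4, so they depend on the scaling and are not read as a result about the list. The median of all tested genes was -0.14 in the first and 0.19 in the second, and the share of all calls that were higher was 35.6% and 67.1%. *Clstn2* (1.86), *Clstn3* (1.85) and *Slitrk1* (1.65) led the rises, and *Flrt1* (-3.38), *Nptx2* (-2.28) and *Lrrc4b* (-1.81) the falls.

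The sensory neuron wells were also set against the 437 remaining wells, to give each member's level where sensory genes were low. The remaining wells held 29809 CPM of the 4 connective tissue genes, 822 of 3 proliferation genes and 184 of 3 spinal inhibitory neuron genes. Of 6 members tested, *Cbln2* and *C1ql2* were higher in sensory neurons and *C1ql1* and *C1ql3* were lower, where 62.8% of 20538 genes were called, 26.8% higher and 36% lower. *Cbln2* was at 13.9 CPM in the remaining wells, from 0 to 51.8 by library, a difference of 3.41 (SE 0.32, adjusted p = 4.9e-09). *C1ql2* was at 0.721 CPM, a difference of 2.73 (SE 0.82, adjusted p = 0.0059), which became 4.0 without library 2 (adjusted p = 0.0012).

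*C1ql1* and *C1ql3* went the other way. *C1ql1* was found in 31 of 437 remaining wells (7.09%, 4.97 CPM) and differed by -5.13 (SE 0.66, adjusted p = 4.5e-07). *C1ql3* was found in 41 (9.38%, 6.25 CPM) and differed by -4.54 (SE 0.70, adjusted p = 5.6e-06). Its libraries in order held 3.11, 2.33, 0, 2.52, 6.42, 9.62, 16.9, 11.0, 0 and 0 CPM, whereas *C1ql1* was highest in libraries 3, 4, 10 and 2 (11.1, 10.7, 8.64 and 7.46 CPM). Libraries 9 and 10 held only 4 and 12 such wells. A count of 0 allows 49.2 and 13.0 CPM there (3 UMIs), and the 8.64 CPM of *C1ql1* in library 10 was 2 UMIs, so neither gene can be ranked in them. Among the rest, *C1ql1* was highest in libraries 3, 4 and 2 and *C1ql3* in libraries 7, 8 and 6. The part of the cell types listed above in either gene was not tested. *Cbln1* differed by 0.01 (adjusted p = 0.99) and *Cbln4* by -1.11 (adjusted p = 0.35). Both values moved with single libraries, and without library 10, which held 7 of the 14 *Cbln4* UMIs in remaining wells, they were 0.66 for *Cbln1* and 0.30 for *Cbln4*. *C1ql4*, with 1 well, was not tested. Of the partners, *Nrxn2* (2.51), *Adgrb1* (2.06) and *Adgrb2* (0.54) were higher in sensory neurons and *Neo1* (-0.91) was lower. Of the 29 other organizers 11 were higher, led by *Slitrk3* (3.58), *Clstn3* (2.38) and *Slitrk5* (2.11). There were 8 lower, led by *Lrrc4b* (-2.99), *Slitrk6* (-2.97) and *Ptprd* (-2.53). Of all tested genes 62.8% were called, 26.8% higher and 36% lower, so these counts are not read as a result about the lists.

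*C1ql2* came from few wells. At e15.5 its 227 UMIs lay in 66 of 390 proprioceptor wells, 10 wells held 50% of them, 14 wells had at least 5 UMIs and 26 had 1, and the highest had 22. At p1 its 124 UMIs lay in 45 of 364 wells, with 50% in 9 wells, at least 5 UMIs in 8 and a highest of 11. The 8479 *Cbln2* UMIs at e15.5 were spread more widely, with 50% in 73 wells and a highest of 246, and at p1 with 50% in 34 wells. The wells with *C1ql2* were deeper, with medians of 132538 UMIs against 105936 in the wells without it at e15.5 and 98600 against 47095 at p1.

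*Cbln2* was found in 62 of the 66 *C1ql2* wells at e15.5 and in 44 of 45 at p1. *Cbln1* was found in 8 of 66 *C1ql2* wells against 54 of 324 others at e15.5, and in 0 of 45 against 17 of 319 at p1. *Tox* was found in 31 of 66 *C1ql2* wells against 191 of 324 at e15.5, and in 20 of 45 against 164 of 319 at p1. *Gabrg1*, a subunit of the GABA type A receptor, was found in 14 of 66 against 86 of 324 at e15.5, and in 25 of 45 against 142 of 319 at p1. The summed p1 level of *Gabrg1* went the other way from this p1 share, at 37.9 CPM in *C1ql2* wells and 86.2 in the others. That of *Tox* was 21.4 and 44.6 CPM. The p1 wells with *C1ql2* were the deeper ones, and 31 of the 45 were in library 1. Since wells of 1 library are not replicates, these shares and levels are given without a test.

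**Figure D4:**
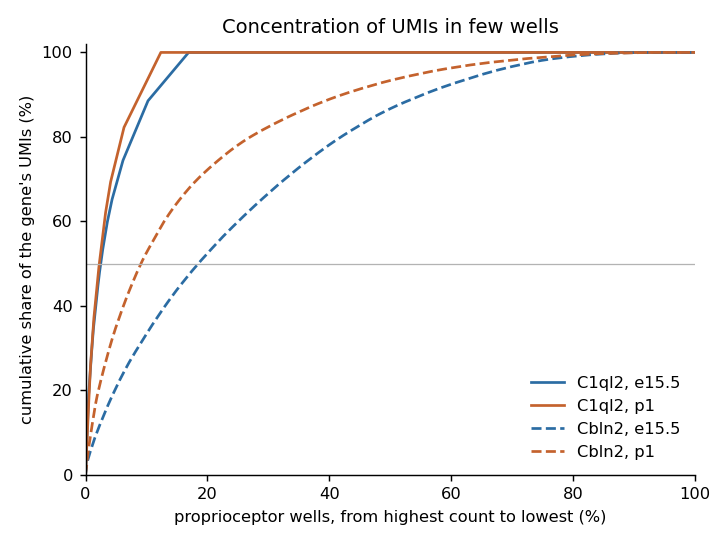
Cumulative share (percent) of the UMIs of *C1ql2* (solid) and *Cbln2* (dashed) against the percent of proprioceptor wells, taken from the highest count down, at e15.5 (390 wells) and p1 (364 wells). *C1ql2* reaches 50% (grey line) within 10 and 9 wells, and *Cbln2* within 73 and 34. These numbers depend on the total count, which was far lower for *C1ql2*.

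The study used *Tox*, *Gabrg1* and *C1ql2* as markers of proprioceptor subtypes found in these cells, so a difference of *C1ql2* between wells that differ in *Tox* and *Gabrg1* is not independent evidence. The other members were not chosen so. Proprioceptor wells were grouped by a UMI of *Tox* alone, of *Gabrg1* alone or of neither, and the wells with both were left out of the fit. At e15.5 there were 178, 56 and 112 wells in these classes and 44 with both, at median depths of 104983, 129880, 75498.5 and 155316 UMIs. Of the 4 members tested, 0 were called by edgeR or DESeq2 and 2 (*C1ql2* and *Cbln1*) had an unadjusted p below 0.05, where 302 of 18523 genes (1.63%) were called and 2594 had an unadjusted p below 0.05.

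At e15.5, *C1ql2* was at 3.97 CPM in *Tox* wells, 3.95 in *Gabrg1* wells, 0.973 in wells with both and 11.5 in wells with neither, and was higher in neither than in *Tox* wells in 7 of 10 libraries (difference 1.53, SE 0.61; any difference adjusted p = 0.33). *Cbln1* was at 2.73 CPM in *Tox* wells, 3.34 in wells with both, 1.50 in *Gabrg1* wells and 0.703 in neither (neither against *Tox* -2.03, adjusted p = 0.087). It was lower in neither than in *Tox* wells in 9 of 10 libraries, and passed without e15.5 library 5 (adjusted p = 0.0496). *Cbln2* was at 185, 202, 257 and 157 CPM in *Tox*, *Gabrg1*, both and neither wells (adjusted p = 0.67), and was lower in neither than in *Tox* wells in 8 of 10 libraries. *Cbln4* was at 0.361, 0.408, 0.417 and 1.61 CPM in the same order (adjusted p = 0.51). *C1ql1* and *C1ql3* had 0 to 4 UMIs in a class and *C1ql4* had 0, and these were not tested.

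At p1 there were 110 *Tox*, 93 *Gabrg1* and 87 neither wells, and 74 with both, with median depths of 58393, 65336, 22825 and 85327 UMIs. Without a block, 72 of 17243 genes (0.418%) and 0 of the 4 members tested were called by edgeR or DESeq2, and 1 (*Cbln2*) had an unadjusted p below 0.05. Sums from 1 library come from the same preparation and so are paired, and with the library as a block 847 genes were called, *Cbln2* and *C1ql2* among them. *Cbln2* was at 208 CPM in *Tox* wells, 529 in *Gabrg1*, 363 in both and 177 in neither. In *Tox* wells libraries 1, 3, 4, 5 and 6 held 232, 241, 148, 225 and 195 CPM, and in *Gabrg1* wells libraries 1, 2, 4 and 5 held 215, 605, 153 and 516. In wells with neither, libraries 1, 2, 4, 5 and 6 held 168, 269, 130, 151 and 113 CPM. Library 2, high in *Cbln2* throughout, had no *Tox* sum, and libraries 3 and 6 had no *Gabrg1* sum.

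Within a library, *Cbln2* was higher in *Gabrg1* than in neither wells in 4 of 4 libraries and higher in wells with both than in *Tox* wells in 4 of 4, but higher in *Gabrg1* than in *Tox* wells in 2 of 3. In the fit with the block the difference of *Gabrg1* from *Tox* wells was 0.61 (SE 0.16, adjusted p = 0.041) and that of neither from *Gabrg1* wells -0.91 (SE 0.15, adjusted p = 0.00034). Without the block, *Gabrg1* differed from *Tox* wells by 0.96 (SE 0.28) and any difference among the classes had an adjusted p of 0.15. With the block and any 1 of the 6 libraries left out, the test of any difference among the classes stayed past the threshold (highest adjusted p = 0.037), as did the difference of neither from *Gabrg1* wells (-1.12 to -0.59, highest adjusted p = 0.045). The difference of *Gabrg1* from *Tox* wells did not hold in the same way. Its adjusted p was 0.12 without library 2, 0.087 without library 4 and 0.97 without library 5, where it was 0.23. A class was set by 1 UMI, and neither wells were shallower than *Gabrg1* wells (medians of 22825 and 65336 UMIs). Class and depth cannot be told apart in the difference of neither from *Gabrg1* wells.

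*C1ql2* was at 2.51 CPM in *Tox* wells, 6.24 in *Gabrg1*, 2.11 in both and 10.5 in neither at p1. *Gabrg1* wells of libraries 1, 2, 4 and 5 held 31.0, 2.87, 4.13 and 3.15 CPM. *Tox* wells of libraries 1 and 6 held 5.80 and 0.442 CPM and those of libraries 3, 4 and 5 held 0. Wells with neither held 25.4 CPM in library 1, 3.11 in library 4 and 0 in libraries 2, 5 and 6, so 34 of their 35 UMIs came from library 1. Within a library *C1ql2* was higher in *Gabrg1* than in neither wells in 4 of 4, the reverse of the order of the summed levels. Only library 1 had more than 1 UMI in both classes (30 and 34). The others had 16 against 0 (library 2), 1 against 1 (library 4) and 4 against 0 (library 5), so this order rests on few counts. *C1ql2* was also higher in *Gabrg1* than in *Tox* wells in 3 of 3 libraries, by 2.90 with the block (SE 0.68, adjusted p = 0.012) and by 2.24 without it (any difference adjusted p = 0.55). In libraries 4 and 5 that was 1 and 4 UMIs against 0. With the block, the test of any difference of *C1ql2* among the classes had an adjusted p of 0.014, and this call was lost without p1 library 1 (adjusted p = 0.11). *Cbln1* was at 1.14, 1.10, 0.791 and 0.904 CPM in *Tox*, *Gabrg1*, both and neither wells (adjusted p = 1.0), and was lower in *Gabrg1* than in *Tox* wells in 3 of 3 libraries and lower in neither than in *Tox* wells in 4 of 4, on 2 to 4 UMIs in each of the *Tox* sums concerned. *C1ql3* was at 2.06, 0.734, 2.77 and 1.51 CPM (adjusted p = 0.78). *C1ql1*, *C1ql4* and *Cbln4* had 0 to 3 UMIs in a class and were not tested. Of the 10 partners, 1 was called at e15.5, *Adgrb2*, lower in *Gabrg1* than in *Tox* wells (-1.05). At p1, 0 were called by edgeR or DESeq2 and 3 had an unadjusted p below 0.05. Of the other organizers 2 were called at e15.5, *Slitrk2* (-2.30, neither against *Tox*) and *Flrt2* (-1.38, *Gabrg1* against *Tox*). At p1, 0 of 28 were called by edgeR or DESeq2 and 5 had an unadjusted p below 0.05. Of all tested genes 1.63% were called at e15.5 and 0.418% at p1, where 1651 of 17243 had an unadjusted p below 0.05.

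**Figure D5:**
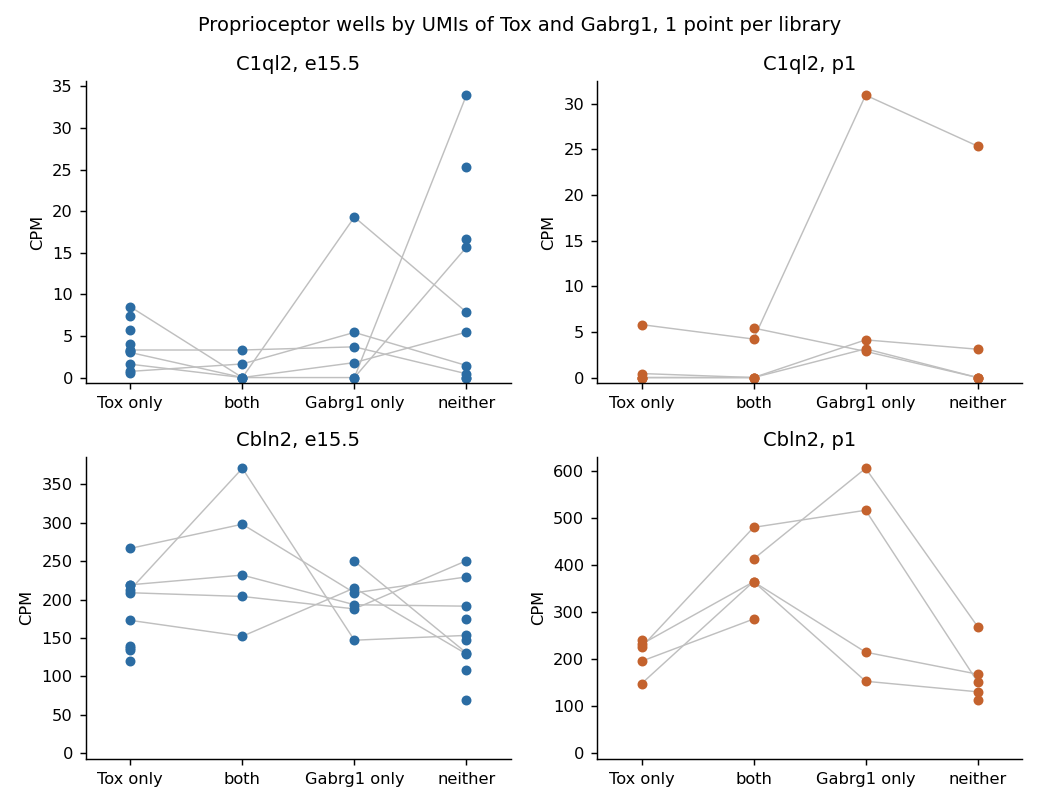
Levels (CPM) of *C1ql2* and *Cbln2* in proprioceptor wells with *Tox* alone, *Gabrg1* alone, both or neither, by library at e15.5 and p1. A line joins the sums of 1 library in neighbouring classes, and a library with too few wells in a class has no point there. *Cbln2* at p1 is higher in *Gabrg1* than in neither wells in 4 of 4 libraries. Neither wells were shallower (medians of 22825 against 65336 UMIs), so class and depth cannot be told apart there.

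*Hoxc10*, a homeobox gene of lumbar levels, is set beside the members because the labels leave the level of a library out. The 5 e15.5 libraries with the lowest *Hoxc10* (36.9, 3.61, 21.6, 2.13 and 16.2 CPM, libraries 1 to 5) were the 5 with the lowest *Cbln2*, and the other 5 held 107 to 141 CPM of *Hoxc10*. *C1ql2* was highest in libraries 2, 1 and 5, which belong to the first 5, and lowest in library 3, which does too. At p1 *Hoxc10* ran from 4.10 to 74.2 CPM, and *Cbln2* did not follow its order. Within a library, *Cbln2* was higher in wells with a *Hoxc10* UMI in 4 of 5 libraries at e15.5 and 4 of 6 at p1 (exact sign-flip tests on log2(CPM + 1), two-sided, p = 0.125 and p = 0.125, where the smallest possible are 0.0625 and 0.03125). *C1ql2* was higher in 2 of 5 (exact p = 0.8125) and 3 of 6 (exact p = 0.4375), and *Cbln1* in 4 of 5 (exact p = 0.125) and 1 of 6 (exact p = 0.6875). In p1 library 3 both genes were at 0 with and without *Hoxc10*, a tie that is not counted as higher. The p1 values of *C1ql2* in libraries 4, 5 and 6 rest on 2, 4 and 1 UMIs.

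Genes most like a member were taken as those with the highest Pearson r across proprioceptor wells within a library, averaged over libraries, on log2(CPM + 10). They share library and depth and carry no p. At e15.5, over 390 wells of 10 libraries, *C1ql2* was most like *Tmem132d* (0.39), *Gm42496* (0.37), *Gm42497* (0.37), *Steap3* (0.37) and *Cntnap4* (0.36). Among libraries the r ran from -0.0263 to 0.734 with *Tmem132d*, from -0.130 to 0.966 with *Gm42496* and from -0.0667 to 0.878 with *Gm42497*. It ran from 0.166 to 0.618 with *Steap3* and from 0.163 to 0.542 with *Cntnap4*. *Cbln2* was most like *Tmeff2* (0.59), *Ptprr* (0.58), *Nrg1* (0.57), *Adgrg2* (0.57) and *Tenm2* (0.55), and *Cbln1* was most like *St6galnac3* (0.35), *Vwa2* (0.32), *Gm44286* (0.31), *Gm37879* (0.31) and *Ftx* (0.30). At p1, over 6 libraries, *Cbln2* was most like *Jak1* (0.57), *Anxa2* (0.55), *Edil3* (0.52), *Gm8797* (0.51) and *Mapre2* (0.51). *C1ql2*, over 5 libraries, was most like *Det1* (0.27), *Il5ra* (0.26), *Gsg1l* (0.25), *Hmx1* (0.24) and *E430014B02Rik* (0.24). In p1 libraries 4, 5 and 6, *C1ql2* was found in only 2, 1 and 1 wells, so its r there rests on those wells. By Spearman rank correlation *Det1* fell to rank 62, and *Hmx1* had no value. For both *C1ql2* and *Cbln2*, the 5 genes at e15.5 and the 5 at p1 were different genes. Each list is 5 of 15547 genes at e15.5 or 14860 at p1. The order also changed by Spearman, with *Gm42496* at rank 60 and *Ptprr* at rank 25 at e15.5. The lack of shared genes is therefore not read as a difference between the ages.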

How the data were processed

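The authors prepared CEL-Seq2 libraries of single cells and used scruff to map reads and tally UMIs, and they deposited the unfiltered counts of each gene in each well. The submitters' processing notes name mm10 and GRCm38. Symbols and places came from GENCODE M21 (49326 of 49671 IDs matched). Samples were grouped by age. Members and gene lists were chosen with earlier results of these data known. All members are named in every comparison, partners in the comparison of ages (some genes of that list are not reported here), and the 3 called organizers with the largest rise and fall per comparison.

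Counts were summed per library and class (at least 5 wells for ages, otherwise 3), and genes with at least 15 UMIs in all were tested with edgeR (version 4.0.16, quasi-likelihood, R 4.3.3) and p-values were adjusted by Benjamini-Hochberg over every tested gene (threshold 0.05). TMM factors came from genes with a mean of at least 50 CPM, a choice made after simulated data showed more false calls with all genes. On simulated sums with 200 genes changed 4-fold the test recovered 99.5% between ages, 89.5% between sensory classes, 100.0% against remaining wells and 100.0% and 97.0% among *Tox* and *Gabrg1* classes at e15.5 and p1. The changed genes were drawn from genes with more UMIs than several tested members had. All genes shared the same dispersion and no library effect was simulated, so the recovery does not cover members with few UMIs. Sums of 1 library share its preparation. In the last 4 comparisons the median r of their deviations from class means was 0.205, 0.240, 0.369 and 0.554. Values with the block appear where a call changed. DESeq2 (version 1.42.0), other filters, depths, thinning and leaving out each library were alternatives. Descriptions used Python (version 3.11.15), NumPy (version 2.4.6), pandas (version 2.3.3), SciPy (version 1.17.1) and Biopython (version 1.88), and plots Matplotlib (version 3.10.9).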

Additional observations from a re-analysis of the deposited data

Results flagged for a closer look

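Of 13 groups of 4 to 10 libraries looked at, 4 had a highest library that stood apart by Dixon's gap test. Its threshold of 1 group in 20 holds for normal values of equal precision. The CPM here rest on unequal and often low counts, so 1 in 20 is not their chance rate. *C1ql2* in p1 proprioceptor wells was highest in library 1 (11.1 CPM, next 2.84, 6 libraries). *Cbln1* in the remaining e15.5 wells was highest in library 10 (25.9 CPM on 6 UMIs, next 6.30, 10 libraries). *Cbln2* in the other sensory neuron wells at e15.5 was highest in library 7 (113 CPM on 14 UMIs of 1 well, next 35.6, 8 libraries). *Cbln4* in e15.5 proprioceptor wells was highest in library 2 (3.61 CPM on 11 UMIs of 3 wells, next 1.46, 10 libraries).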

How the results depend on the processing

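Between ages *Cbln2* was called in 29 of 29 other settings (0.74 to 1.18) and *C1ql3* in 27 of 27 in which it could be tested, and in sensory neurons *Cbln2*, *C1ql2*, *C1ql1* and *C1ql3* kept their calls wherever they could be tested. Depth limits the rarer genes. Between ages the members called were 1 with filterByExpr and 1 with wells thinned to 10000 UMIs (6339 genes called), and 2 to 3 without 1 library (9423 to 10667 genes). Replicate numbers do not pair the ages (r of same-numbered libraries -0.278 to 0.306, median -0.225), and as a block they gave *C1ql2* -1.86 (adjusted p = 0.0097) and ended the call of *Cbln3*.

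Between proprioceptor and other sensory wells, 2 members were called by DESeq2, without wells with glial transcripts, and with a marker sum of at least 1000 CPM, and 1 to 2 without 1 library (3464 to 4160 genes). Genes called there were 2523 with the replicate block, 2732 with wells of at least 20000 UMIs, 1956 with *Avil* plus *Isl1* of at least 200 CPM, 2277 thinned and 1746 without wells with connective tissue transcripts. Against the remaining wells, 1 member was called with filterByExpr, and 8163 genes when thinned.

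Among the *Tox* and *Gabrg1* classes at e15.5, genes called were 523 by DESeq2, 525 with the replicate block, 456 with all 4 markers, 96 thinned, 536 with a marker sum of at least 1000 CPM and 66 to 337 without 1 library (0 to 1 members). At p1 they were 473 with no filter (1 member), 39 with filterByExpr, 120 with wells of at least 5000 UMIs, 16 thinned, 14 to 340 without 1 library (0 to 1 members, the lowest without library 5 and the highest without library 1) and 847 with the replicate block (2 members). The block without 1 library, chosen after seeing the data as were the marker sum, the connective tissue wells and TMM over all genes, gave 138 to 632 genes and 0 to 1 members at e15.5, and 435 to 1155 genes and 1 to 2 members at p1. Beyond those given here and in the results, the block changed no call of a member. The share of wells with a UMI fell on thinning to 4.36%, 3.02% and 0.458% for *C1ql2* (proprioceptor wells at e15.5, at p1, and remaining wells), to 2.31%, 1.10% and 1.83% for *Cbln1*, and to 70.0%, 76.4% and 10.3% for *Cbln2*. The cause of these changes was not tested beyond the smaller counts, wells or libraries that each setting leaves.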
